A study of Rattus norvegicus with 12 samples.

Results

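Alveolar type 1 cells are the thin, flat epithelial cells that cover most of the gas-exchange surface of the lung, and they lie against the capillary endothelium across a shared basement membrane. They carry water channels, caveolae and a receptor of the immunoglobulin superfamily at high density, they secrete a growth factor that acts on the capillaries next to them, and after injury they are replaced from alveolar type 2 cells, the cuboidal surfactant-producing cells. The 10 genes described here mark or serve this cell: Ager, Pdpn, Aqp5, Clic5, Emp2, Cav1, Hopx, Rtkn2, Akap5 and Vegfa. They were taken by name from a table of 23096 genes, and each name matched 1 row. Several of them are also made by other lung cells: Cav1 by endothelium and fibroblasts, Pdpn by lymphatic endothelium and mesothelium, Aqp5 by airway glands, and Vegfa by many epithelial and stromal cells.

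The RNA came from lungs, bronchi included, of male Sprague Dawley rats, 8 weeks old and weighing 300 g. The DA group, with 6 libraries, had 2,3-butanedione (diacetyl, a butter-flavouring compound that injures airway epithelium) instilled into the trachea at 125 mg/kg daily for 7 days, and lungs were taken 24 h after the last dose. The control group, also with 6 libraries, had sterile distilled water instilled by the same route. Whole lung holds many cell types, so fewer alveolar type 1 cells and less RNA per cell cannot be told apart in these values.

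The libraries held 13723207 to 16271842 counted reads. Libraries stood apart in 2 ways that touch every result below. The labels call all rats male, yet reads on the Y-linked genes Kdm5d, Eif2s3y and Uty were present in only 6 libraries (control replicates 1 and 2 and DA replicates 1 to 4, at 2185 to 2881 counts) and were at 0 in control replicates 3 to 6 and DA replicates 5 and 6. DA replicate 4 had the lowest limma-voom quality weight of the 12 libraries, 0.212 against 0.654 to 2.27. That weight is estimated from the spread of the same expression values and does not measure RNA quality. The library held 14471391 counted reads, with 17354 genes detected. Its summed level of 8 lymphocyte genes was 823 CPM, against 59.1 to 217 CPM in the others. CPM are read counts divided by library totals that TMM, edgeR's trimmed-mean method, had scaled, brought to a common size. The genes described here are therefore given with and without DA replicate 4, and within the libraries with and without Y-linked reads.

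In these lungs 9 of the 10 genes were expressed and 1, Rtkn2, was listed at 0 in all 12 libraries. With DA replicate 4 included, none of the 9 passed the test for a difference between groups, at an edgeR adjusted p under 0.05, which 16% of all genes tested did. With that library left out, when 9.03% of all genes tested were called higher, 4 genes rose 1.61-fold to 1.74-fold in the DA group: Akap5, an anchoring protein for protein kinase A, Vegfa, the growth factor, Pdpn, a surface glycoprotein, and Aqp5, the water channel. The other 5, which include the widely used markers Ager and Hopx, did not pass. None of the 9 passed in the libraries with Y-linked reads, which hold only 2 control libraries. There 0 of all 14517 genes tested passed, or 0.124% without DA replicate 4.

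The marker genes were abundant in the control lungs. Levels can be compared between genes only per transcript length, as FPKM, the count divided by the length in kilobases and by the library total. On this scale Hopx, a homeodomain-only transcriptional cofactor, was highest at 537 ± 142 FPKM (mean ± SD, n = 6). Emp2, a tetraspan membrane protein, followed at 293 ± 67.6 FPKM, and Clic5, a chloride intracellular channel protein tied to the actin cortex, at 284 ± 46.0 FPKM. Ager, which encodes the receptor RAGE of the basal membrane, had 160.05 ± 27.4 FPKM, and Cav1, the coat protein of caveolae, 159.7 ± 26.8 FPKM. Aqp5 had 79.2 ± 37.3 FPKM and Pdpn, the apical glycoprotein also called T1-alpha, 66.7 ± 22.7 FPKM. Akap5 and Vegfa were lowest, at 55.3 ± 9.76 and 35.5 ± 10.1 FPKM.

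Neighbours in that order overlapped in range over the 6 control libraries at every step except from Clic5 to Ager. The order depends on the transcript lengths the authors used. The length given for Ager, 6145 bases, exceeds the 3199 bases that the whole gene spans in RefSeq. The lengths given for Vegfa (15546 against 15341 bases) and Akap5 (9982 against 9544 bases) exceed that span slightly. A longer length lowers the FPKM of a given count, and its net effect on these values was not tested. Hopx, Clic5 and Rtkn2 overlap lncRNA genes in RefSeq, and without a stated strand setting the reads of such genes cannot be told apart. Whether this bears on the count of 0 for Rtkn2 was not tested. For Rtkn2, which has the identifier ENSRNOG00000000636, a count of 0 allows up to 0.184 to 0.219 CPM per library, for counting error alone. Rtkn2 was 1 of 3834 genes of the table at 0 everywhere and was not tested.

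**Figure D1:**
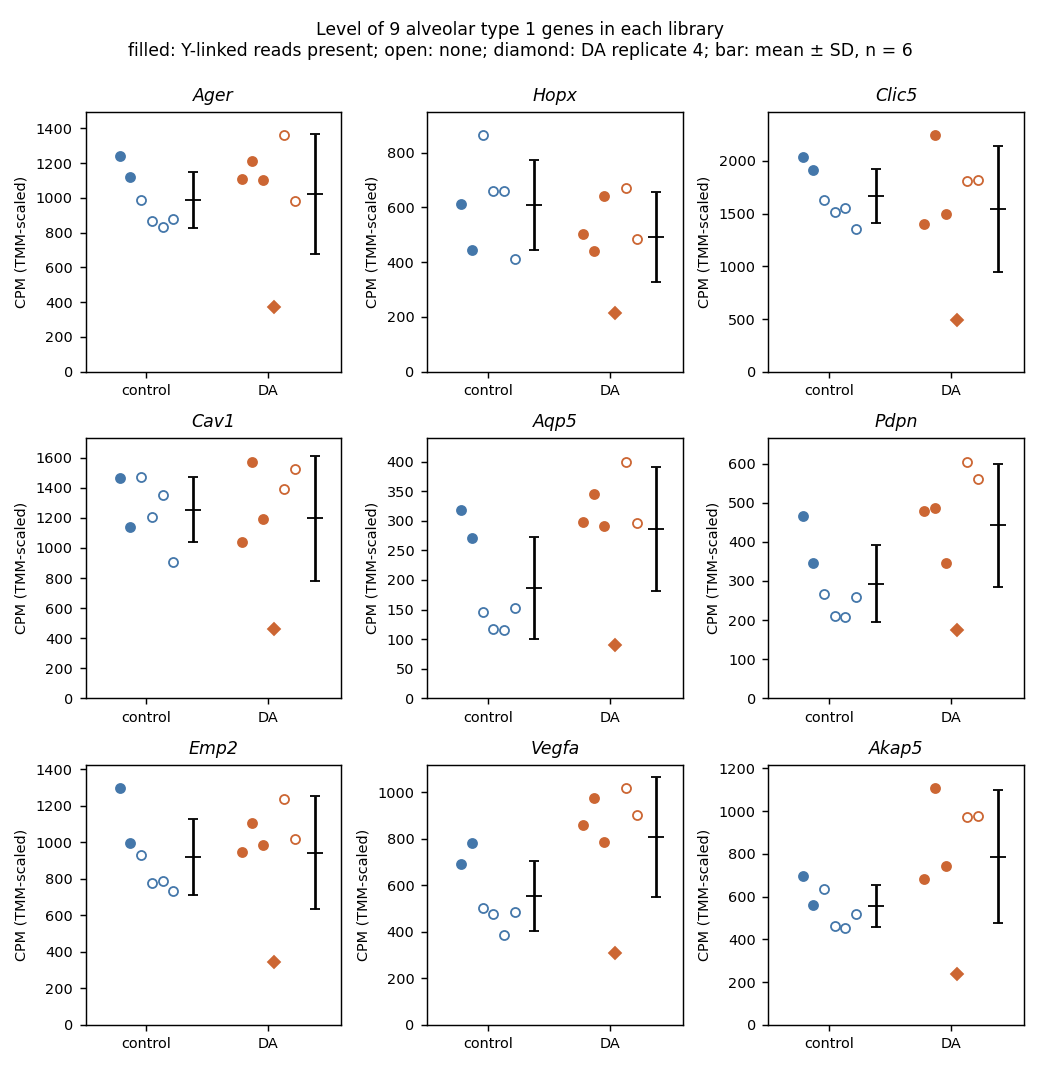
Level of the 9 expressed genes in each library in CPM scaled by TMM (y axis, from 0), by group (x axis), with filled points for libraries with Y-linked reads, open points for those without, a diamond for DA replicate 4 and a bar for the mean ± SD (n = 6). The diamond is the lowest of the 12 points in every panel, and the filled control points lie above the open ones for Aqp5, Pdpn and Vegfa.

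Over all 12 libraries the edgeR quasi-likelihood test called 0 of the 9 genes at an adjusted p under 0.05, where 16% of the 14517 genes tested were called, 8.45% higher and 7.51% lower (1226 and 1090 genes, or 1662 and 853 with upper-quartile scaling in place of TMM). At an unadjusted p under 0.05 it called 0 of the 9 as well, beside 33.6% of all genes. DESeq2 called 0 after adjustment, beside 24.3%, and limma-voom with library quality weights called 4 as higher, beside 14%. The fitted log2 fold changes ran from -0.31 ± 0.25 (SE) for Hopx to 0.62 ± 0.34 for Aqp5, and 6 of the 9 were above 0. The median over the 9 was 0.05, beside 0.03 over all genes tested. The 95% interval for Ager ran from -0.43 to 0.53 on the log2 scale.

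DA replicate 4 stood apart for these genes. It was the lowest of the 12 libraries for each of the 9 genes, as it was for 23.7% of all genes tested. Its levels stood between 24.4% (Akap5) and 42.4% (Hopx) of the median of the other 5 DA libraries, and 10.3% of all genes were at or below 50% there. Together the 9 genes took 0.292% of the reads of DA replicate 4, and 0.564% to 0.958% of the reads of every other library.

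Markers of other cells moved with these genes in DA replicate 4. The summed level of 11 alveolar type 2 markers was 17620 CPM there, against 36126 to 48886 CPM in the other libraries. That of 13 endothelial markers was 1439 CPM, against 2844 to 5744 CPM. Krt5, the keratin of airway basal cells, had 839 counts in DA replicate 4 and at most 2 in any other library. The part of these shifts in the low level of the 9 genes was not tested.

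**Figure D2:**
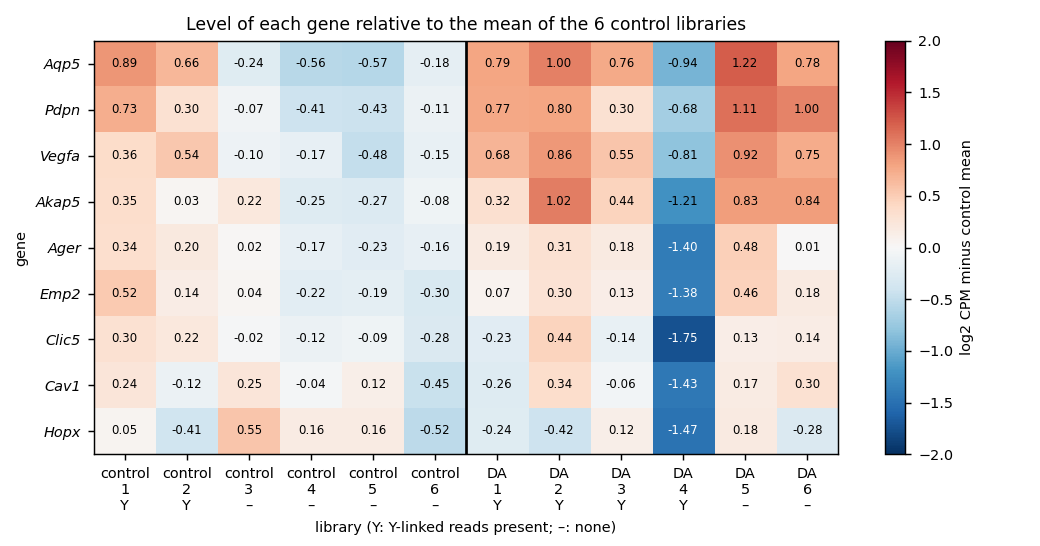
Level of each gene (rows) in each library (columns) as log2 CPM minus the mean of the 6 control libraries, with Y marking libraries that hold Y-linked reads. The column of DA replicate 4 is below 0 in all 9 rows, from -0.68 for Pdpn to -1.75 for Clic5, and the rows of Aqp5, Pdpn, Vegfa and Akap5 are above 0 in the other 5 DA columns.

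Without DA replicate 4, 4 of the 9 genes were higher in the DA group and 0 lower, beside 19.1% of all genes tested that were called, 9.03% higher and 10% lower (1311 and 1456 genes, or 1815 and 1151 with upper-quartile scaling). The median log2 fold change over the 9 was 0.22, beside 0.02 over all genes. DESeq2 also called 4 as higher without that library, beside 12.6% of all genes.

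Among the membrane and surface proteins, Pdpn and Aqp5 rose. Pdpn had 208, 263 and 466 CPM as lowest, median and highest of the 6 control libraries and 480, 487, 345.4, 605 and 560 CPM in DA replicates 1, 2, 3, 5 and 6. The groups overlapped through control replicate 1, at 466 CPM, while control replicate 2, at 345.04 CPM, lay just under the lowest DA library. The fold change was 1.69, or 0.76 ± 0.21 on the log2 scale (adjusted p = 0.0296), and it passed in 4 of the 11 fits that left out 1 further library, with an adjusted p of up to 0.0666.

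Aqp5 had 116, 149 and 318 CPM in control and 298, 345, 292, 400 and 296 CPM in DA replicates 1, 2, 3, 5 and 6. Control replicate 1, at 318 CPM, lay inside the DA range, control replicate 2, at 272 CPM, just below it, and the other 4 stayed at 116 to 152 CPM. The fold change of Aqp5 was 1.74, or 0.80 ± 0.26 on the log2 scale, with an adjusted p of 0.0498 at the very edge of the threshold. It was lost with raw library totals in place of TMM (adjusted p = 0.0552), without the filter on low counts (0.0524), and in 9 of the 11 fits that left out 1 further library (up to 0.0952).

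The receptor and the remaining membrane proteins did not pass. Ager had 834, 932 and 1239 CPM in control and 984, 1111 and 1361 CPM in DA libraries, with a log2 fold change of 0.22 ± 0.13 (adjusted p = 0.244). Emp2 had 733, 860 and 1295 CPM against 948, 1019 and 1239 CPM (0.20 ± 0.15, adjusted p = 0.365). For both genes the ranges lay largely over each other, with control replicate 1 among the highest libraries.

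Clic5 had 1358, 1588 and 2033 CPM in control and 1406, 1811 and 2244 CPM in DA libraries, a log2 fold change of 0.07 ± 0.15 (adjusted p = 0.771). Cav1 had 909, 1278 and 1469 CPM against 1038, 1393 and 1574 CPM, a log2 fold change of 0.09 ± 0.15 (adjusted p = 0.696). The ranges of these genes covered each other almost completely. Their 95% intervals ran from -0.22 to 0.37 for Clic5 and from -0.20 to 0.39 for Cav1.

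Among the regulators, Akap5 rose and Hopx did not pass. Akap5 had 454, 539 and 698 CPM in control and 682, 1107, 742, 974 and 979 CPM in DA replicates 1, 2, 3, 5 and 6. DA replicate 1, at 682 CPM, was the only DA library below the highest control. The fold change was 1.61, or 0.69 ± 0.16 on the log2 scale (adjusted p = 0.0122), and it passed in all 11 fits that left out 1 further library. Hopx had 411, 636 and 863 CPM in control and 441, 501 and 670 CPM in DA libraries. It was the only one of the 9 with a fitted value below 0, at -0.16 ± 0.19 (adjusted p = 0.584), and its ranges overlapped broadly.

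Vegfa, the ligand that alveolar type 1 cells offer to capillary endothelium, had 385, 493 and 781 CPM in control and 859, 978, 786, 1018 and 903 CPM in DA replicates 1, 2, 3, 5 and 6. Every DA library other than replicate 4 was above every control library, though only just, with 786 CPM in DA replicate 3 and 781 CPM in control replicate 2. Of all genes tested, 4.68% were separated in this direction in the same 11 libraries. The fold change of Vegfa was 1.64, or 0.71 ± 0.17 on the log2 scale (adjusted p = 0.0153), and it passed in all 11 fits that left out 1 further library.

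Within the control group, the 2 libraries with Y-linked reads were above the 4 without for Aqp5 (272 to 318 against 116 to 152 CPM), Pdpn (345 to 466 against 208 to 266 CPM), Vegfa (691 to 781 against 385 to 501 CPM), Ager (1119 to 1239 against 834 to 988 CPM), Clic5 (1916 to 2033 against 1358 to 1625 CPM) and Emp2 (995 to 1295 against 733 to 930 CPM). Of all genes tested, 11.1% were separated in this direction in the same 6 libraries. Akap5, Hopx and Cav1 overlapped between them. In the DA group without replicate 4, the 3 libraries with Y-linked reads had 292 to 345 CPM of Aqp5 and the 2 without had 296 to 400 CPM. For Pdpn they had 345 to 487 against 560 to 605 CPM and for Vegfa 786 to 978 against 903 to 1018 CPM, so that for these genes the order of the control group was not present there. The term for Y-linked reads passed for none of the 9 after adjustment in the 11 libraries (adjusted p = 0.663 to 0.971). Over all 14517 genes tested edgeR called only 10 for this term, and 6.61% at an unadjusted p under 0.05. Aqp5 had an unadjusted p of 0.0296 there.

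In the 6 libraries without Y-linked reads, 4 control against 2 DA, the same 4 genes passed and their fold changes were larger. Aqp5 was 2.61-fold higher (log2 1.38 ± 0.17, adjusted p = 0.00908), Pdpn 2.45-fold (1.29 ± 0.14, 0.0086), Vegfa 2.07-fold (1.05 ± 0.14, 0.0102) and Akap5 1.88-fold (0.91 ± 0.16, 0.0177). In this set 4.89% of all genes tested were called higher. The other 5 did not pass here either, with Emp2 nearest (0.48 ± 0.15, adjusted p = 0.0802).

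In the libraries with Y-linked reads other than DA replicate 4, 2 control against 3 DA, no member passed, and only 0.124% of all genes tested did. There the log2 fold change was 0.42 ± 0.27 for Akap5, 0.25 ± 0.20 for Vegfa, 0.11 ± 0.23 for Pdpn and 0.07 ± 0.17 for Aqp5. With DA replicate 4 among them, edgeR called 0 of the 14517 genes, 1388 at an unadjusted p under 0.05. The difference between the DA effects with and without Y-linked reads was itself tested by an interaction term. Without DA replicate 4 this difference was -1.31 ± 0.24 in log2 for Aqp5 (unadjusted p = 0.000239, adjusted p = 0.151), -1.19 ± 0.27 for Pdpn (0.00106, 0.218) and -0.80 ± 0.22 for Vegfa (0.00377, 0.324), and -0.49 ± 0.31 for Akap5 (0.143, 0.688), so that none passed after adjustment. Over all genes edgeR called 0 for this term, and 1294 at an unadjusted p under 0.05.

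A term for Y-linked reads in the fit of the 11 libraries left the same 4 genes called, with adjusted p-values of 0.0183 for Vegfa, 0.0211 for Akap5, 0.0382 for Aqp5 and 0.0392 for Pdpn, beside 6.83% of all genes called higher. Why reads on Y-linked genes were missing from 6 libraries labelled male was not tested.

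**Figure D3:**
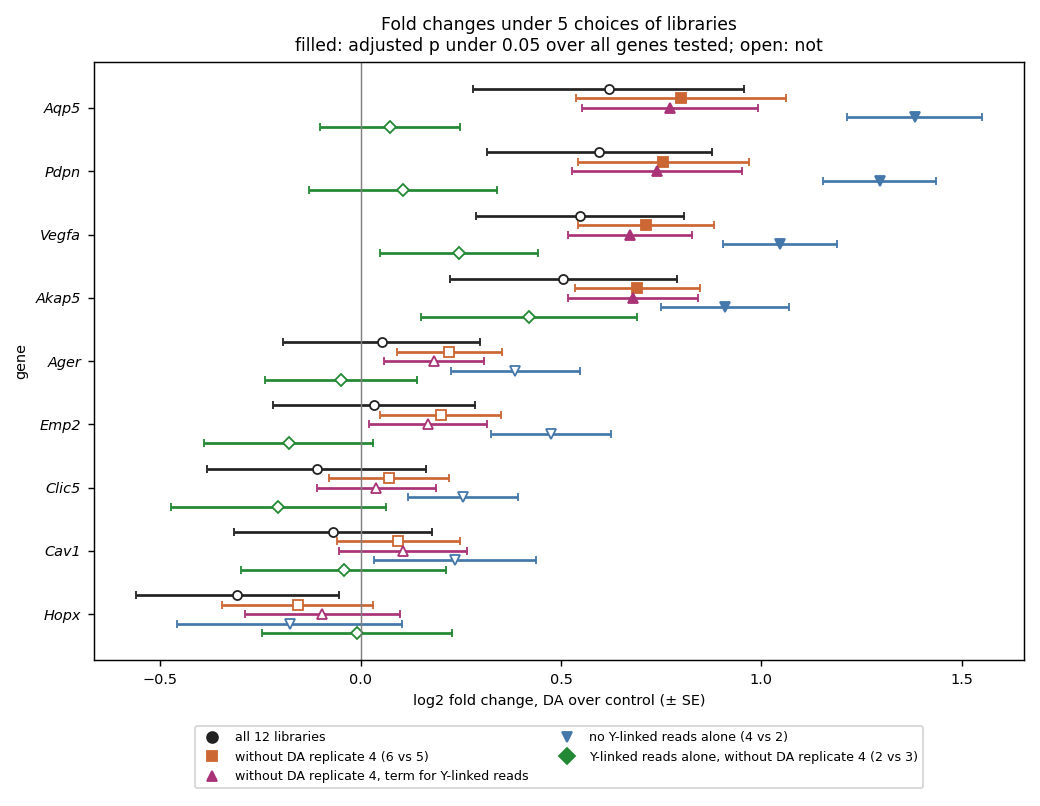
Log2 fold change of DA over control (x axis, ± SE) for each of the 9 genes (y axis) from all 12 libraries, from 11 without DA replicate 4, from those 11 with a term for Y-linked reads, and from the libraries without or with Y-linked reads alone, filled where the adjusted p was under 0.05. Aqp5, Pdpn, Vegfa and Akap5 are filled in 3 of the 5 fits, lie furthest right (0.91 to 1.38) in the libraries without Y-linked reads, and lie at 0.07 to 0.42 in the libraries with them other than DA replicate 4.

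Because all 9 genes were low together in DA replicate 4, each was also set relative to Ager within the same library, a scale chosen after the values were seen. The ratio of Vegfa to Ager had 0.461, 0.552 and 0.698 as lowest, median and highest value in the 6 control libraries and 0.712, 0.790 and 0.918 in the 6 DA libraries. DA replicate 4 stood at 0.830, inside the range of the other DA libraries, and the groups did not overlap. Of all other genes tested, 0.896% were separated from Ager in this direction over the 12 libraries.

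The ratio of Pdpn to Ager was 0.243 to 0.376 in control and 0.313 to 0.569 in DA libraries. That of Aqp5 was 0.134 to 0.257 against 0.243 to 0.300, and that of Akap5 0.501 to 0.644 against 0.614 to 0.995. For these genes the ranges overlapped only at their edges, with DA replicate 4 in or next to the overlap for Aqp5 and Akap5. The ratio of Emp2 was 0.837 to 1.05 against 0.853 to 1.04, and the ratios of Clic5, Cav1 and Hopx overlapped broadly.

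With library sizes set by the Ager count, edgeR called none of the members over all 12 libraries (Vegfa adjusted p = 0.219), where 0.413% of all genes were called higher, and DA replicate 4 left out it called Vegfa (adjusted p = 0.0275), Aqp5 (0.0327), Pdpn (0.0346) and Akap5 (0.0499), where 2.42% were. In the latter fit this scale moved the median of all genes to -0.22 in log2, with 351 genes higher and 2129 lower, and the log2 fold changes of these genes, 0.48 to 0.63, are to be read against that shift.

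**Figure D4:**
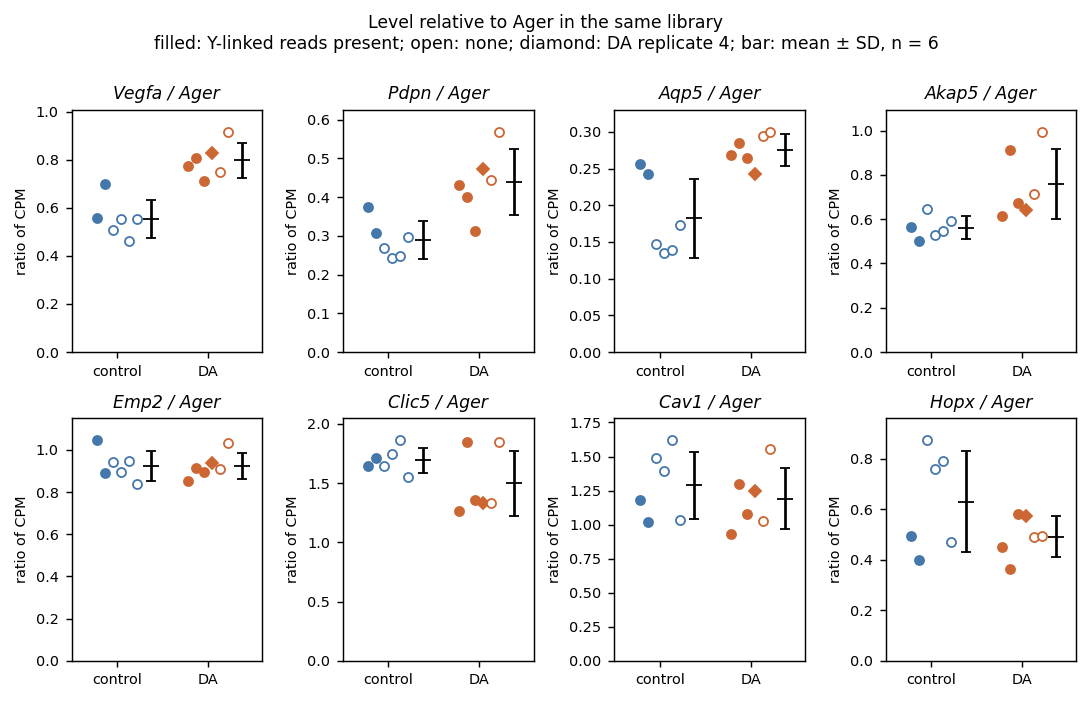
Ratio of the CPM of each gene to that of Ager in the same library (y axis, from 0) by group (x axis), with filled points for libraries with Y-linked reads, open points for those without, a diamond for DA replicate 4 and a bar for the mean ± SD (n = 6). For Vegfa all 6 DA points, at 0.712 to 0.918 and the diamond among them, lie above all control points.

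After the group means were removed, the 9 genes varied together across libraries. All 36 pairs had a positive Pearson correlation of log2 CPM over the 12 libraries, with a median of 0.90 and a range of 0.47 to 0.98. Without DA replicate 4 the median was 0.66 and 31 of the 36 were positive. All points share the same 12 libraries and their scaling, and the values describe these libraries only. No correlations between pairs of other genes are given beside these.

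Emp2 was the gene most like Ager among 12614 genes with a mean of at least 1 FPKM, at r = 0.98 over the 12 libraries. Its r was 0.91 and its rank 11 without DA replicate 4, with Aqp5 at rank 16 (r = 0.90), so that the first place rests on that library. The next 4 over the 12 libraries were Vasn, Wnt3a, Lmo7 and Foxf2, at r = 0.97 to 0.98. Hopx was the member least like Ager, at r = 0.72, and at r = 0.07 without DA replicate 4, followed by Cav1 at 0.86 and 0.27. Without that library Vegfa ranked 83, Pdpn 199, Clic5 583, Akap5 732, Cav1 3320 and Hopx 5403 of the 12614 genes. Many genes outside the set were thus as close to Ager as these members.

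Promoter windows of 250 bases are shown for the 4 genes that rose without DA replicate 4 and for Ager, the marker that did not pass. Their sequence can so be read beside their values. For Vegfa, Akap5 and Aqp5 the window ends just before the start of the RefSeq gene. For Pdpn and Ager, and for Hopx and Rtkn2 among those not shown, the only window listed does not adjoin that start. They come from RefSeq on the rat build GRCr8, which is not the build of the counts, and all 10 names were found there. Capitals mark the GC box, the letters GGGCGG or CCGCCC on either strand, a motif of many promoters bound by SP-family factors. It was present in 8 of the 10 windows and in 30.5% of the 33469 windows of this length in the table. The 10 windows held 51.6% (Pdpn) to 83.2% (Aqp5) G and C, beside a median of 51.2% over all windows. The shares with a GC box were not compared at equal G and C content. The exceptions were Ager and Hopx, both with a window that does not adjoin the gene start. The windows of Pdpn and Rtkn2 do not adjoin it either, and they held 3 and 4 matches.
Vegfa, chr9:22452604-22452853, plus strand: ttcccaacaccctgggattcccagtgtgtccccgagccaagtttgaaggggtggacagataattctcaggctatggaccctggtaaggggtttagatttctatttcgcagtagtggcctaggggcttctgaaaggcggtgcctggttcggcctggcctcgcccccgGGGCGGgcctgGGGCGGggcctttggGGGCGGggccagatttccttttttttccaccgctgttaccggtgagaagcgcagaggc
Akap5, chr6:100786919-100787168, plus strand: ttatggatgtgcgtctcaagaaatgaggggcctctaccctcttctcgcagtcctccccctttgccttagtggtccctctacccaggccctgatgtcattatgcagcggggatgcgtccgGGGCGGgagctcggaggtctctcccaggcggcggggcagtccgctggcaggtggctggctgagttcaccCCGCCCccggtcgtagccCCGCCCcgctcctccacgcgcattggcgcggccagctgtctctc
Pdpn, chr5:160918960-160919209, minus strand: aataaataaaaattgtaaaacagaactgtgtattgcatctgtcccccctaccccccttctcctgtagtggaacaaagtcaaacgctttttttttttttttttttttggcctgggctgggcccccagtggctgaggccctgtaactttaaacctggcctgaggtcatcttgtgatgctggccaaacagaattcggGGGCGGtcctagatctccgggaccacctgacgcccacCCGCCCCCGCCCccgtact
Aqp5, chr7:132601278-132601527, plus strand: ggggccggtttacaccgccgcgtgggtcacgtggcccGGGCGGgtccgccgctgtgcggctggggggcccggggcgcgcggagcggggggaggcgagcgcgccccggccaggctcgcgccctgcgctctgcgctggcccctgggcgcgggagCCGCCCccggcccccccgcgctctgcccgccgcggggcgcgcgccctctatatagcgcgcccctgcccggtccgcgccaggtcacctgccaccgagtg
Ager, chr20:4155686-4155935, minus strand: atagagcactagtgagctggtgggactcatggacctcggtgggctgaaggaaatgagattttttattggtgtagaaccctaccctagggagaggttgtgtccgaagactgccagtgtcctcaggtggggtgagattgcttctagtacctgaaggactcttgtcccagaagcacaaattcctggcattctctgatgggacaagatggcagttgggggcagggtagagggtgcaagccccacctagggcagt

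The core letters of 3 other factors were searched on both strands of the same windows. CAAGTG, a core of sites of the lung factor NKX2-1, was in 0 of the 10 windows and in 11.7% of all. GGAATG, a core of sites of the TEAD factors that work with YAP and TAZ, was in 0 of the 10 windows and in 12.1% of all. ACGTG, the core of hypoxia response elements, was in 3 of the 10, those of Hopx, Cav1 and Aqp5, and in 16.6% of all. A match or its absence in 250 bases describes these letters and no binding.

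Further genes of alveolar type 1 cells were read in the same fits. For this list and those below, the share of all genes tested is the background. Over all 12 libraries 8.45% were called higher and 7.51% lower, and without DA replicate 4, 9.03% and 10%. Of 17 tested, 3 rose over all 12 libraries and 0 fell, and without DA replicate 4, 8 rose and 2 fell, with a median log2 fold change of 0.40. Igfbp2, a growth factor binding protein of mature alveolar type 1 cells, rose by 1.22 ± 0.22 in log2 (adjusted p = 0.00517), Fstl3, an activin-binding protein, by 1.13 ± 0.16 (0.00195), and Cldn18, a tight junction protein of alveolar epithelium, by 0.72 ± 0.12 (0.00352). Gprc5a, an orphan receptor, rose by 0.81 ± 0.20 (0.0164), and Gramd2a by 0.29 ± 0.08 (0.0229). Cryab, a small heat shock protein, rose by 0.92 ± 0.22 (0.015). The 2 that fell, named after their values were seen, were Col4a3, a basement membrane collagen chain (-0.59 ± 0.19, 0.0486), and Limch1 (-0.64 ± 0.20, 0.0416).

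**Figure D5:**
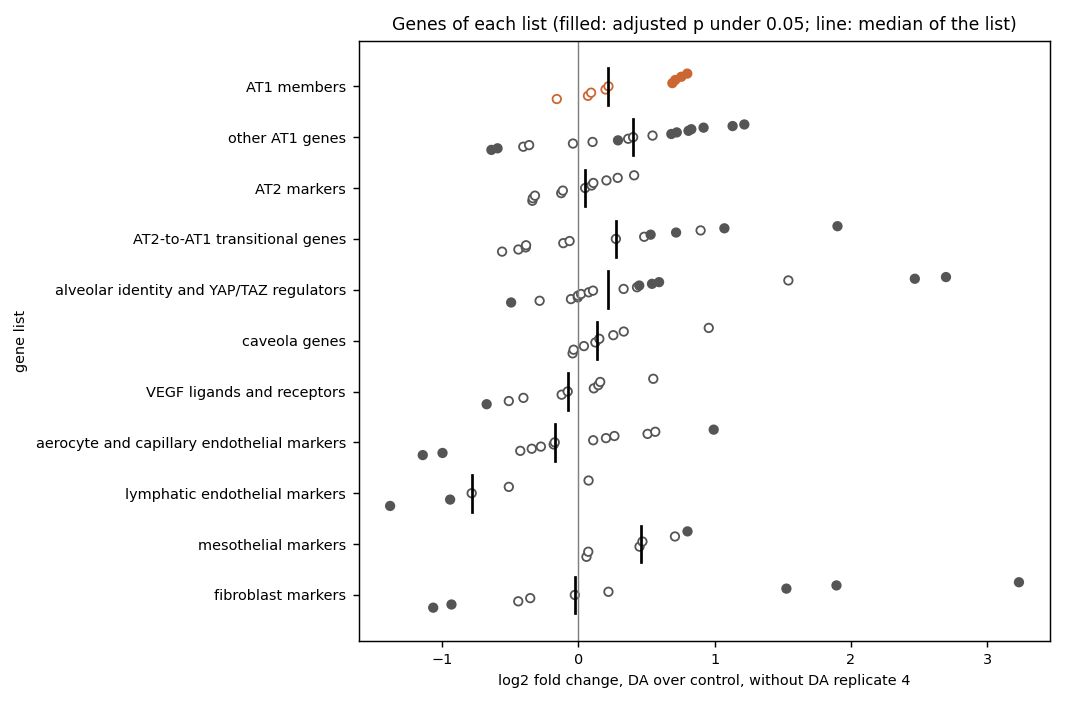
Log2 fold change of DA over control without DA replicate 4 (x axis) for the genes of 11 lists (y axis), each point a gene, filled where the adjusted p was under 0.05, with a line at the median of the list. The 9 expressed genes described here are the top row, where 4 points at 0.69 to 0.80 are filled and the line is at 0.22.

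No alveolar type 2 marker passed. Of 11 tested, edgeR called 0 with or without DA replicate 4. At an unadjusted p under 0.05 it called 3 with that library and 4 without it (1 higher and 3 lower), beside 4881 and 5163 of all 14517 genes. DESeq2 called 2 and 3 (without it, 0 higher and 3 lower). Of all genes DESeq2 called 1888 higher and 1645 lower with that library, and 1835 and 2005 without it. The median log2 fold change of the list was 0.05 without DA replicate 4. Sftpc, the surfactant protein that defines the cell, had a log2 fold change of 0.10 ± 0.15 without DA replicate 4 (adjusted p = 0.673), and Lyz2 had 0.11 (0.664). Those nearest to the threshold, named after their values were seen, were the transporters Abca3 (-0.33, 0.0564) and Slc34a2 (-0.32, 0.0624) and the factor Etv5 (-0.34, 0.0611), all lower in the DA group. Abca3 was called lower in the libraries without Y-linked reads (-0.48, 0.0446). Their summed level was 39898 to 45740 CPM in control and 36126 to 48886 CPM in DA libraries without replicate 4. Among 13 genes of the transitional cell state between type 2 and type 1, 4 rose without DA replicate 4, with a median of 0.28 in log2, and 3 with it. Krt8, the keratin that names that state, rose by 0.72 ± 0.12 (adjusted p = 0.00352) and Tnfrsf12a, the receptor for TWEAK, by 1.90 ± 0.26 (0.00159). Krt18 rose by 0.53 ± 0.15 (0.0299) and Hbegf, an EGF-family ligand, by 1.07 ± 0.22 (0.00861). The other 9, named after their values were seen, were not called. Cdkn1a (-0.56), Clu (-0.44), Ndrg1 (-0.38), Plaur (-0.38), Lgals3 (-0.11) and Sfn (-0.06) were below 0. Areg (0.90), Itgb6 (0.48) and Cldn4 (0.28) were above 0. In the libraries without Y-linked reads the median of the list was -0.23.

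Of 16 genes for alveolar identity and YAP/TAZ signalling, 5 rose and 1 fell without DA replicate 4, with a median of 0.22 in log2, and 4 rose with it. The YAP/TAZ targets Ccn2 (2.47 ± 0.25 in log2, adjusted p = 0.00111) and Ankrd1 (2.70 ± 0.40, 0.00206) rose. Nkx2-1, the lineage factor of lung epithelium, rose by 0.45 ± 0.14 (0.0378), a call lost over all 12 libraries (0.423) and, without DA replicate 4, with raw library totals (0.0511). Yap1 and Wwtr1, the coactivators themselves, had 0.11 (0.367) and 0.43 (0.0521). Without DA replicate 4, Wwtr1 passed with upper-quartile scaling (0.0336), raw library totals (0.0488) and a filter on mean FPKM of at least 1 (0.047). It did not pass with a term for Y-linked reads (0.0796), and passed in 2 of the 11 fits that left out 1 further library.

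Partners of the members were read in the same 11 libraries. Of 9 other VEGF ligands and receptors, 1 fell and 0 rose. Flt1, a receptor of VEGF-A, fell (-0.67 ± 0.17 in log2, adjusted p = 0.0177), and Kdr, the main signalling receptor, had -0.40 ± 0.23 (0.235). Of 8 hypoxia-induced genes other than Vegfa, 2 rose, Ldha (0.46 ± 0.13, 0.0274) and Adm (0.93 ± 0.29, 0.0422). Of 8 caveola genes beside Cav1, edgeR called 0 (1 at an unadjusted p under 0.05, 0 by DESeq2), with Cav2 at 0.13 and Cavin2 at -0.04. Of 6 RAGE ligands, Hmgb1 alone rose (0.57 ± 0.16, 0.0262). Of 12 partners of the AKAP5 protein, Adrb1 rose (0.67 ± 0.22, 0.0473) and Adcy3 (-0.57 ± 0.14, 0.0168) and Ppp3ca (-0.27 ± 0.08, 0.0387) fell. Of 3 further aquaporins, Aqp4 rose (0.82 ± 0.27, 0.0491). The calls of Adrb1 (0.0532) and Aqp4 (0.0558) were lost with raw library totals, and that of Ppp3ca with upper-quartile scaling (0.0768).

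Markers of the other cells that make some of the members moved too, and their part in the values above was not tested. Of 13 capillary endothelial markers, with a median of -0.17 in log2, Emcn rose (0.99 ± 0.16 in log2, adjusted p = 0.00317) and Tek (-0.995 ± 0.22, 0.0113) and Ednrb (-1.14 ± 0.35, 0.0386) fell without DA replicate 4, while Pecam1 and Cdh5 had 0.20 and -0.27. Their summed level was 3595 to 5358 CPM in control and 2844 to 5744 CPM in DA libraries. Of 5 lymphatic markers, which share Pdpn with type 1 cells, 2 fell, Reln (-1.38, 0.00352) and Mmrn1 (-0.94, 0.0126), with sums of 170 to 258 and 85.0 to 237 CPM, and Prox1 had -0.78 (0.0827). Of 6 mesothelial markers, which also share Pdpn, Msln rose (0.80 ± 0.24, 0.0372), with sums of 118 to 294 and 216 to 413 CPM. Of 9 fibroblast markers 3 rose and 2 fell, among them Lum (3.23), Col1a1 (1.89), Col1a2 (1.53) and Tcf21 (-0.93), with sums of 1437 to 1616 and 1940 to 4192 CPM. Of 7 airway markers 5 rose, among them Ccno (3.67), Scgb3a2 (2.56), Tekt2 and Krt15 (0.67), and Muc5b (3.93, 0.0279), named after its values were seen, with sums of 2607 to 6668 and 3901 to 13746 CPM. Of the 8 lymphocyte genes, 5 were called lower, with sums of 79.2 to 217 and 59.1 to 124 CPM.

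Several calls on these further genes were lost when single libraries were left out. Of the 11 fits that left out 1 library beside DA replicate 4, Krt18 passed in 3, Adm in 5, Ednrb, Msln and Nkx2-1 in 4 each, Adrb1, Aqp4 and Ppp3ca in 2 each, Hmgb1 and Ldha in 6 each and Gramd2a in 9. In the libraries without Y-linked reads alone, 7 of the 16 genes for alveolar identity and YAP/TAZ signalling, 3 of the 6 mesothelial markers and 7 of the 17 further type 1 genes were called higher. There 1 of the 11 type 2 markers and 3 of the further type 1 genes were called lower. Of all 14517 genes tested, 4.89% were called higher in that set and 979 lower. In the libraries with Y-linked reads other than DA replicate 4, 1 further type 1 gene and 1 gene of the transitional state were called higher. No gene of the lists was called lower there. Of all genes tested, 14 were called higher and 4 lower in those libraries.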

How the data were processed

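RNA sequencing of 12 rat lung libraries was analysed. Per the submitters' processing notes, the tools were HISAT2 2.2.1 and HTSeq 2.0.2 with the rat build mRatBN7.2. Strand setting, annotation release and filters are not given in the sources used here. The authors deposited a read count and an FPKM value per gene and library. The deposited FPKM values equal the counts divided by the deposited gene length and the library total, to a relative deviation of 5.3e-15.

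Counts were fitted with edgeR 4.0.16 in R 4.3.3 (TMM scaling, filterByExpr, quasi-likelihood F test, two-sided, Benjamini-Hochberg adjustment over the 14517 genes kept, threshold 0.05), on all 12 libraries and on 11 without DA replicate 4. CPM values use TMM-scaled library sizes. SE and 95% intervals are on the log2 scale. Alternatives were other scalings and filters, DESeq2 1.42.0, limma 3.58.1 on log2(FPKM + pseudocount) and with voom quality weights, a replicate block, terms for Y-linked reads, and single libraries left out. The fits without DA replicate 4 other than the plain one, and the scaling to Ager, were added after the data were seen. The scripts were tested on simulated data.

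The 10 members and 16 gene lists were chosen with earlier results of these data known, and a lymphocyte list was added later. Of 170 list entries, 157 matched, 1 of them by a synonym, and the rest are not analysed here. Every member is named, and of each other list the 3 called genes with the smallest adjusted p (or the 2 with the highest mean FPKM where none was called), with some fixed by name. The labels do not say that each library came from a separate rat, so p-values measure the spread between these samples. Counting error at 13723207 to 16271842 reads is small beside the spread between libraries (biological coefficient of variation 31.0%). Promoter sequences come from RefSeq.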

Additional observations from a re-analysis of the deposited data

Results flagged for a closer look

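In 3 of the 18 sets of 6 libraries examined (9 genes in 2 groups), 1 library lay further from its neighbour than the others by Dixon's measure, the gap to the nearest library divided by the whole range, against the critical value for 6 libraries. Each time it was DA replicate 4, as the lowest. The measure was 0.6737 for Emp2, where DA replicate 4 had 346 CPM and the next DA library 948 CPM. It was 0.6734 for Vegfa, with 307 against 786 CPM, and 0.6504 for Aqp5, with 89.8 against 292 CPM. Chance marks about 1 set in 20, and the 9 genes share the same libraries.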

How the results depend on the processing

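Most values kept their direction and their side of the threshold. Across the alternatives that left out no single library, 24 of 125 values of the members over all libraries (16 by a turned sign, 8 by a call gained) and 16 of 116 without DA replicate 4 (7 by a turned sign, 9 by a call lost) did not. The exceptions follow, and the cause was not tested.

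Over all libraries, 1226 genes were higher, 1090 lower and 0 members called. The counts of higher and lower genes were 2034 and 1932 with voom quality weights (4 members higher: Aqp5, Pdpn, Vegfa and Akap5, adjusted p 0.0141 to 0.0334), 1888 and 1645 with DESeq2, 549 and 572 with a term for Y-linked reads, 0 and 0 in the libraries with Y-linked reads alone, and 60 and 30 scaled to Ager. In the libraries without Y-linked reads 710 genes and 4 members were higher. Leaving out 1 library gave 572 to 1660 higher genes, 579 to 1456 lower genes, 0 to 4 members higher and 0 lower. The 4 came only from leaving out DA replicate 4.

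Without DA replicate 4, 1311 genes and 4 members were higher and 1456 genes lower. Scaled to Ager 351 genes were higher. In the libraries with Y-linked reads alone, 14 genes were higher, 4 lower and 0 members. Leaving out 1 further library gave 796 to 1618 genes higher, 899 to 1682 lower, 2 to 4 members higher and 0 lower.

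Signs turned only for genes that were not called in the fit they are set against. Among them were Aqp5, Pdpn and Vegfa, which were called higher without DA replicate 4. Over all libraries, Ager was -0.0288, -0.0284 and -0.0279 with limma on FPKM at pseudocounts 0.1, 0.5 and 1 and -0.31 in the libraries with Y-linked reads, and Emp2 was -0.0308, -0.0306 and -0.0304 at those pseudocounts, -0.44 in those libraries and -0.0029 scaled to Ager. In those libraries Aqp5 was -0.20, Pdpn -0.12 and Vegfa -0.0067. In the libraries without Y-linked reads Clic5 was 0.26 and Cav1 0.24. Without DA replicate 4 and scaled to Ager, Clic5 was -0.15, Cav1 -0.13, Emp2 -0.0069, Lyz2 -0.14, Sftpc -0.13, Yap1 -0.11, Cav2 -0.0853 and Pecam1 -0.0528. In the libraries with Y-linked reads, also without DA replicate 4, Ager was -0.0501, Clic5 -0.21, Cav1 -0.0421, Emp2 -0.18, Sftpc -0.13 and Cav2 -0.0479. Cavin2 was 0.0104 with upper-quartile scaling. With 1 library left out, Ager ran from -0.0462 to 0.22, Clic5 from -0.25 to 0.0711, Cav1 from -0.16 to 0.0942 and Emp2 from -0.0616 to 0.20. With 1 further library left out beside DA replicate 4, Clic5 ran from -0.0290 to 0.15 and Cavin2 from -0.18 to 0.0367.

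With the replicate number as a block, 677 genes were higher over all libraries (757 lower, 0 members), Ager was -0.0315 and Emp2 -0.0351. Without DA replicate 4 the block gave 547 genes higher and 705 lower, with 1 member, Vegfa (adjusted p = 0.0449), while Akap5 (0.0747), Pdpn (0.0766) and Aqp5 (0.0811) were not called. The numbers were not taken to pair the samples, since no label ties them and not every correlation of same-numbered libraries was over 0.1. They ran from -0.26 to 0.30, and 3 of 6 control libraries correlated best with their own number, a hint from the data and not the design.

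Of the other named genes, 76 of 391 values over all libraries and 73 of 596 without DA replicate 4 lost their call under some alternative, and 5 of the latter gained one.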
